A study of Mus musculus with 39 samples.

Results

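Border-associated macrophages (BAM) are the macrophages of the meninges, perivascular spaces and choroid plexus, the tissues that bound the brain, and the earliest step over which they were sampled here runs from E10.5 to E11.5, stages given as embryonic days. The step is described by 7 libraries out of 39 in the whole series: 4 of BAM at E10.5 and 3 of BAM at E11.5, chosen by population, stage and library-number series and by no measured value. The step itself was chosen with earlier results of these data known. The cells came from C57Bl/6 embryos of time-mated mice, with the day of the vaginal plug counted as E0.5, and were purified by FACS. No transgene, deletion or treatment is named for any group. The microglia libraries of the same days, 4 at E10.5 and 3 at E11.5, come from the same study and share no library with the BAM groups, so they serve as the comparison population.

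BAM and microglia both descend from early yolk sac progenitors that colonise the embryo before definitive haematopoiesis, and both depend on the CSF1 receptor. Microglia settle in the neural tissue, while BAM line its borders, where they take up debris, lipoproteins and immune complexes through scavenger, lectin and Fc receptors. Border macrophages are commonly recognised by the mannose receptor Mrc1 and the hyaluronan receptor Lyve1, and microglia by P2ry12, Tmem119 and Sall1.

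Reads assigned to genes totalled 23.457 to 29.453 M in the E10.5 libraries and 20.63 to 29.302 M at E11.5. Library sizes therefore overlapped between the groups. The labels give neither the markers of the sorting gates nor whether libraries came from separate litters or pools of embryos. The p-values rest on the spread within the 12 groups of all 39 libraries, fitted together, and cover no more than that spread, which may be technical. Levels are in CPM, that is counts scaled to the library total, and differences in log2 units with the standard error of the fit. A gene was called when its Benjamini-Hochberg adjusted p from edgeR's quasi-likelihood test was below 0.05 over all 22061 genes tested.

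Macrophage identity was checked on macrophage genes. Csf1r, the receptor for CSF1, read 3796, 3188, 2891 and 3061 CPM at E10.5 and 5303, 5189 and 5160 CPM at E11.5. The groups did not overlap, and Csf1r rose by 0.69 ± 0.11 on the log2 scale (adjusted p = 0.000105). Adgre1, which encodes F4/80, rose by 0.80 ± 0.14 (adjusted p = 0.00024), whereas the myeloid transcription factor Spi1 differed by 0.03 ± 0.22 (adjusted p = 1). Of the other markers looked at, Cd68, Aif1, C1qa and Fcgr3 were not called (adjusted p = 0.796, 0.845, 0.319 and 0.257). Ptprc, the leukocyte marker CD45, read 487 to 731 CPM and then 436 to 484 CPM, lower without overlap but not called (adjusted p = 0.154). Every one of the 7 libraries thus carried these macrophage transcripts. Csf1r also read 3181 to 4122 CPM in microglia at E10.5, so this check does not separate BAM from microglia. Since the samples are bulk, a change in how many cells of a kind were sorted and a change in RNA per cell cannot be told apart.

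The 3 E11.5 libraries lay together on the first principal component, at 25.27 to 28.53, and 3 of the E10.5 libraries at -34.77 to -19.6. The remaining E10.5 library, replicate 3, lay between the groups at 5.35 and stood apart on the second component at -45.6. Libraries correlated at a Spearman coefficient of at least 0.9265 with each other. The mitochondrial share of counts was 1.496 to 2.274% at E10.5 and 2.172 to 2.685% at E11.5, and the 10 most abundant genes held 6.888 to 8.125% against 9.13 to 9.546%. Their part in the results below was not tested. Without E10.5 replicate 3, 774 of the 976 calls given next were still made, and none of the 976 changed direction.

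**Figure D1:**
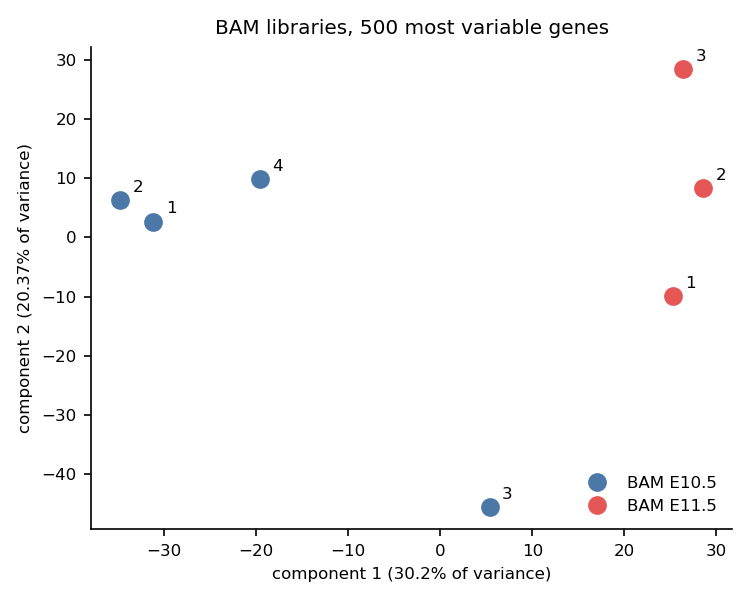
Principal components of the 7 BAM libraries over the 500 most variable genes, with component 1 (30.2% of variance) on the horizontal axis and component 2 (20.37%) on the vertical axis, and replicate numbers beside the points. The E11.5 libraries sit at the right, 3 E10.5 libraries at the left, and E10.5 replicate 3 between them on component 1 and lowest on component 2.

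Between E10.5 and E11.5, more than 1 in 2 of the tested genes of the interferon-response and border macrophage lists were called higher in BAM, and more than 1 in 2 of the glycolysis genes lower. Smaller shares were called, each in 1 direction, among Fc and lectin receptors (higher) and in serine and cholesterol synthesis (lower). All gene lists were drawn up with earlier results of these data known, so their directions are not independent evidence. Of the 22061 genes, 976 were called (4.42%), 658 of them higher at E11.5 (2.98%) and 318 lower (1.44%). At least a 2-fold difference was estimated for 501 of the calls (2.27%). Among the 7553 genes with a mean of at least 16 CPM, 599 were called (7.93%), and 340 of these were higher (4.5%) and 259 lower (3.43%). The excess of higher calls lay partly at low counts: 143 of the 658 genes had 0 counts in all E10.5 libraries, against 15 of the 318 lower genes with 0 counts at E11.5. All libraries of the groups were apart, without overlap, for 1385 genes with E11.5 above (6.28%) and 1207 below (5.47%). With these 7 libraries alone in the fit, 358 genes were called, and without E11.5 replicate 2 there were 629 (650 without E11.5 replicate 1).

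The leading genes on the rising side were headed by Ptprk, a receptor-type tyrosine phosphatase (chr10:28074820-28597397 in GRCm38). It read 2.62, 0.681, 13.7 and 1.29 CPM at E10.5 and 46.7, 79.4 and 44.9 CPM at E11.5. Its highest E10.5 library was again replicate 3, well below every E11.5 library, and the rise was 3.64 ± 0.49 (adjusted p = 1.07e-05, and 0.0611 with the 7 libraries alone in the fit). Gatm, the enzyme of the first step of creatine synthesis (chr2:122594467-122611303), had the smallest adjusted p of the named genes. It read 54.0, 44.0, 49.0 and 51.9 CPM at E10.5 and 349, 323 and 312 CPM at E11.5. Gatm thus rose by 2.72 ± 0.14 (adjusted p = 8.57e-16), or 6.6-fold, with little spread within either day. The other genes among the 12 largest rises at 16 CPM or more were Fcgr2b, Mgl2, Ms4a7, Lgals3bp and the interferon-response genes Oas2, Oasl2, Oas1a, Rtp4, Ddx60 and Ifit3.

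**Figure D2:**
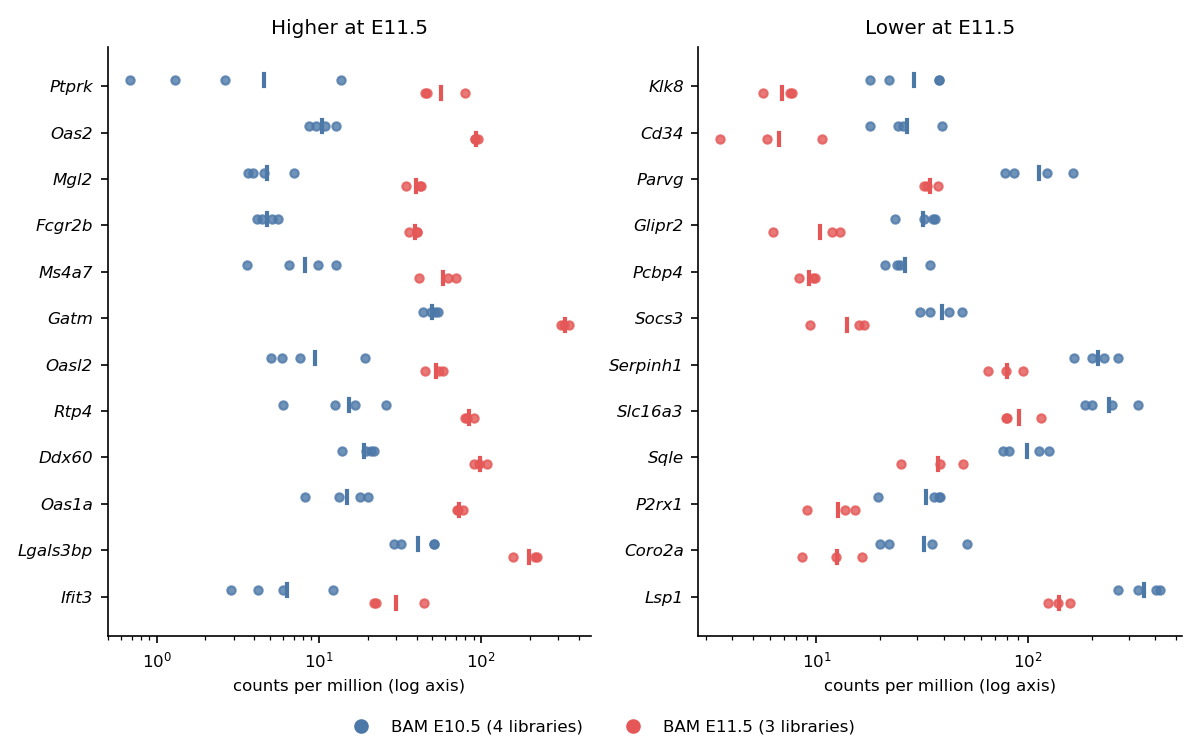
CPM on a log axis for the 12 genes with the largest called rise and the 12 with the largest called fall among genes with a mean of at least 16 CPM. Each point is 1 library (blue E10.5, red E11.5) and each vertical bar the mean of its group; the colours do not overlap for any of these genes.

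Of the 24 interferon-response genes, 15 were called higher at E11.5 and 0 lower, and the median change was 1.65, against 0.0 over all genes tested. Interferons act through receptors whose signal reaches the promoters of antiviral genes, with STAT2 and IRF9 among the factors that carry it. Oas2, an enzyme that makes the oligoadenylate second messenger of the antiviral response (chr5:120730333-120749853), read 9.58, 8.74, 12.7 and 10.9 CPM at E10.5. Its E11.5 libraries read 92.2, 95.8 and 91.5 CPM. The gap was wide next to the spread, a rise of 3.15 ± 0.32 (adjusted p = 4.48e-08), or 8.9-fold.

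The same direction ran from effectors to the signalling components. Oasl2, an oligoadenylate synthetase-like protein, rose by 2.47 ± 0.30 (adjusted p = 1.93e-06), and Ifit3, which binds foreign RNA together with its relatives, by 2.23 ± 0.43 (adjusted p = 0.00122). Usp18, which damps signalling at the interferon receptor, read 2.84, 2.51, 0.696 and 0.645 CPM at E10.5 and 9.96, 7.77 and 10.6 CPM at E11.5, and rose by 2.48 ± 0.38 (adjusted p = 5.6e-05, and 0.0525 with the 7 libraries alone). Irf9 rose by 1.25 ± 0.17 (adjusted p = 8.53e-06) and Irf7 by 1.33 ± 0.31 (adjusted p = 0.00951). Stat2 rose by 0.84 ± 0.19 (adjusted p = 0.00546, and 0.0977 with the 7 libraries alone). Rtp4, Ddx60 and Lgals3bp, which interferon is known to induce but which were not on the list, rose by 2.46, 2.37 and 2.27. These genes were named because they were among the largest called rises of this same step. Their direction is therefore not separate evidence for the list. Oas1a and Ifit3 have close gene copies, so their counts may be shared with those.

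With a single library left out, the number of interferon-response genes called higher was 12 to 15. With the 7 libraries alone in the fit it was 9. In the single E18.5 BAM library of the same number series, Oas2 read 213 CPM and Irf9 175 CPM, above the E11.5 libraries. That library has no replicate in its series.

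The promoters of these genes were read from RefSeq windows on GRCm38.p6 covering the 250 bases before each start site, which held 16 of the 24 genes. The interferon-stimulated response element was searched by its core GAAANNGAA on both strands. It was present in 8 of the 16 windows and in 4 of the 9 whose gene was called, in 8.18% of the 27025 genes with a window, in 1035 of the 13371 tested genes with one (7.74%) and in 57 of 466 genes called higher (12.2%). The 3 stretches below are shown because they carry the match in genes that rose. They are written 5′ to 3′ on the gene's own strand, with the match nearest the start site in capitals, and in Ifit3 and Stat2 it lies on the opposite strand.
Ifit3: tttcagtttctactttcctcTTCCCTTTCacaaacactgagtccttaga
Oas1a: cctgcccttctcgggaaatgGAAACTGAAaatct
Stat2: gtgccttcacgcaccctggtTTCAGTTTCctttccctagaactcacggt
Their positions are chr19:34583407-34583455 on the plus strand, chr5:120907526-120907559 on the minus strand and chr10:128270257-128270305 on the plus strand. In Oas1a the match ends 6 bases before the start site, in Ifit3 94 and in Stat2 213. A match of letters is a description and does not show that a factor was bound.

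Receptors that take up immune complexes, sugars and modified lipoproteins were called in part. Of 17 Fc and C-type lectin receptors, 7 were called higher and 0 lower (median 0.67). Fcgr2b, the inhibitory receptor for IgG complexes (chr1:170958617-170976547), read 4.15, 4.44, 5.57 and 5.11 CPM at E10.5 and 40.1, 40.4 and 36.2 CPM at E11.5. It rose by 3.01 ± 0.22 (adjusted p = 2.73e-11), and the single E18.5 library read 821 CPM. Mgl2, a lectin for galactose-type sugars, read 3.65, 3.91, 7.07 and 4.60 CPM at E10.5. At E11.5 it read 34.5, 42.4 and 42.2 CPM, a rise of 3.05 ± 0.51 (adjusted p = 0.000205). Clec4n, the receptor Dectin-2, rose by 1.73 ± 0.32, and Fcgrt, which recycles IgG, by 1.13 ± 0.22.

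Among 22 scavenger and endocytic receptors, 5 were called higher and 2 lower (median 0.34), and the lower count was 0 to 3 with 1 library left out (0 without E11.5 replicate 2, 3 without E10.5 replicate 3). Colec12, a scavenger receptor with a collagen stalk, read 128 to 156 CPM at E10.5 and 460 to 532 CPM at E11.5 and rose by 1.80 ± 0.22 (adjusted p = 1.87e-06). Stab1, a scavenger receptor of endothelium and tissue macrophages, read 2037 to 2776 CPM and then 5188 to 6116 CPM, with a rise of 1.20 ± 0.17 (adjusted p = 2.43e-05). Cd36, which binds oxidised lipoproteins and dying cells, rose by 1.87 ± 0.35, and Msr1, the class A scavenger receptor, by 1.40 ± 0.30.

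Of 20 genes of lipid handling, 5 were called higher and 1 lower (median 0.34). Apoe, the lipoprotein component that macrophages secrete, read 1660, 2899, 3714 and 3877 CPM at E10.5. At E11.5 it read 9082, 8087 and 7839 CPM, and rose by 1.46 ± 0.26 (adjusted p = 0.000478). Abca1, the transporter that loads lipid onto apolipoproteins, rose by 1.14 ± 0.20, and Cyp27a1, which hydroxylates cholesterol, by 0.96 ± 0.16. Spp1, the secreted phosphoprotein osteopontin, read 8.12, 8.13, 7.57 and 17.1 CPM at E10.5 and 43.1, 54.9 and 38.0 CPM at E11.5, a rise of 2.15 ± 0.32.

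The uptake of dying cells and its downstream compartment showed smaller differences. For apoptotic cell uptake, 6 of 23 genes were called higher and 1 lower (median 0.18), among them the receptor Mertk (0.70 ± 0.15) and its bridging ligand Gas6 (0.84 ± 0.19). For the lysosome, 8 of 32 were called higher and 0 lower (median 0.29). Grn, the precursor of the lysosomal granulins, read 1247 to 1595 CPM at E10.5 and 2429 to 2610 CPM at E11.5 and rose by 0.86 ± 0.11 (adjusted p = 2.78e-06). The proteases Ctsh, Ctsd and Lgmn rose by 1.60, 0.72 and 0.62. When the fit tested for a change beyond 1.5-fold, 1 of the 8 lysosome calls was left, which was Ctsh.

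Of the 27 genes of the border macrophage list, 15 were called higher and 0 lower, with a median of 1.20. For 23 of them all E11.5 libraries lay above the E10.5 ones. Over all genes tested, 2.98% were called higher and 6.28% were apart in that direction. Like the other lists, it was drawn up with earlier results of these libraries known, so its direction is not independent evidence. Ms4a7, a membrane-spanning protein typical of border macrophages, read 3.62, 6.52, 9.89 and 12.8 CPM at E10.5 and 62.6, 70.0 and 41.6 CPM at E11.5. It rose by 2.83 ± 0.51 (adjusted p = 0.000482), and the folate receptor Folr2 rose by 2.40 ± 0.46 (adjusted p = 0.00101). Fewer members were called when 1 library was left out, 10 to 14. In microglia 9 of the 27 were called higher (median 0.74), and Ms4a7 and Folr2 rose there by 3.77 ± 0.55 and 2.67 ± 0.54.

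The surface markers used for these cells were less settled. Lyve1 read 411, 193, 466 and 344 CPM at E10.5 and 1248, 1657 and 1272 CPM at E11.5. The groups were apart, and the difference of 1.98 ± 0.56 was called (adjusted p = 0.0328), but with any 1 library left out other than E10.5 replicate 3 it was not, the highest adjusted p being 0.104 without E10.5 replicate 2. With the 7 libraries alone in the fit Lyve1 was called (adjusted p = 0.00485). Mrc1 read 3231 to 4610 CPM at E10.5 and 5753 to 6230 CPM at E11.5, a difference of 0.71 ± 0.28 that was not called (adjusted p = 0.158), although it was with the 7 libraries alone in the fit (adjusted p = 0.00715). Cd163, a haemoglobin scavenger receptor, read 0.143 to 3.33 CPM and then 4.48 to 13.7 CPM (adjusted p = 0.0743, and 0.197 with the 7 libraries alone). In the single E18.5 library Cd163 read 1419 CPM. The chemokine Pf4 read 71.2 to 167 CPM and then 315 to 353 CPM (adjusted p = 0.178, and 0.0306 with the 7 libraries alone).

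Growth factors and their binding proteins were called higher for 8 of 20 genes and lower for 0 (median 0.93). Igf1, insulin-like growth factor 1, read 86.6, 99.6, 106 and 114 CPM at E10.5 and 292, 284 and 240 CPM at E11.5, and rose by 1.42 ± 0.24 (adjusted p = 0.000196). Nrp1, a co-receptor for VEGF and semaphorins, rose by 1.02 ± 0.15 (adjusted p = 3.6e-05). In the list of metalloproteases and matrix, 4 of 19 were called higher. Mmp14, a membrane metalloprotease, had 0 counts in all 4 E10.5 libraries and 157 counts over the 3 E11.5 libraries, which makes it at least 75.1-fold higher with 3 counts allowed over the E10.5 group. E11.5 replicate 2 held 107 of these counts, and without it the bound was 39.4-fold.

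Transcripts of connective tissue moved beside those groups. Of 13 mesenchymal and mural markers tested, 6 were called higher and 1 lower. The higher count was 4 to 5 with 1 library left out, 2 with the 7 libraries alone in the fit and 7 by DESeq2. It was 1 with only the E10.5 libraries numbered above those of E11.5. Their summed level was 8.3 to 38.7 CPM at E10.5, with replicate 3 the highest, and 59.4 to 61.5 CPM at E11.5. Col3a1, a fibrillar collagen, read 3.08 to 10.9 CPM and then 29.2 to 30.3 CPM (2.43 ± 0.48, adjusted p = 0.00154), and the proteoglycan Lum had 6 counts at E10.5 and 308 at E11.5. Pdgfra and Pdgfrb, receptors that mark mesenchymal and mural cells, read at most 5.64 CPM in any of the 7 libraries and were not called (adjusted p = 0.797 and 0.957). The part of these transcripts in the higher calls was not tested.

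On the falling side, the 12 largest named changes were headed by Klk8, a secreted serine protease, and Cd34, a sialomucin of progenitors and vessels. Klk8 read 17.9, 22.1, 37.8 and 38.2 CPM at E10.5 and 7.62, 5.59 and 7.49 CPM at E11.5, and fell by 2.07 ± 0.49 (adjusted p = 0.00951, and 0.0601 without E11.5 replicate 2). Cd34 (chr1:194938819-194961279) read 25.7, 39.4, 17.9 and 24.2 CPM at E10.5. It read 10.6, 3.51 and 5.83 CPM at E11.5, and fell by 2.02 ± 0.39 (adjusted p = 0.00109). Neither gene had an E11.5 library within the range of the E10.5 libraries.

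Several of the falling genes belong to the actin and adhesion machinery of leukocytes. Parvg, an integrin-linked actin binder of blood cells (chr15:84324026-84342978), read 77.7 to 163 CPM at E10.5 and 32.3 to 37.7 CPM at E11.5 and fell by 1.70 ± 0.25 (adjusted p = 4.74e-05). Lsp1, a leukocyte F-actin protein, fell by 1.34 ± 0.19 (adjusted p = 2.94e-05). Of 20 integrins and adhesion genes, 4 were called lower and 1 higher (median -0.36), and the lower count was 2 without E10.5 replicate 1, E11.5 replicate 1 or E11.5 replicate 2. Icam1, the ligand of the beta 2 integrins, read 114, 85.6, 68.0 and 69.5 CPM and then 42.5, 39.1 and 35.6 CPM, and fell by 1.11 ± 0.18 (adjusted p = 0.000104). The beta 2 subunit itself, Itgb2, fell by 0.60 ± 0.15 with overlapping groups (adjusted p = 0.0158, and 0.136 without E11.5 replicate 2).

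The other 7 of the largest falls were Glipr2 (-1.63), Pcbp4 (-1.51), Socs3 (-1.49), Serpinh1 (-1.44), Sqle (-1.40), P2rx1 (-1.39) and Coro2a (-1.38). Socs3, the feedback inhibitor of cytokine signalling, read 30.9 to 49.0 CPM and then 9.28 to 16.8 CPM. Sqle, which is described with cholesterol synthesis below, was called with any 1 library left out. The other 6 were not called without at least 1 library. The highest adjusted p was 0.125 for Glipr2 and 0.151 for Coro2a, both without E11.5 replicate 3. It was 0.105 for Pcbp4, 0.163 for Socs3 and 0.083 for P2rx1, all without E11.5 replicate 2, and 0.124 for Serpinh1 without E11.5 replicate 1.

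Glycolysis was the list with the largest share of members called lower. Of its 18 identifiers, 12 were called lower and 0 higher, all 18 estimates were below 0, and the median was -0.80. The pathway splits glucose into pyruvate, and its last members here make lactate and carry it out of the cell. Slc16a3, the lactate exporter MCT4 (chr11:120948480-120960868), read 332, 251, 187 and 200 CPM at E10.5 and 79.4, 79.0 and 115 CPM at E11.5. No E11.5 library reached the lowest E10.5 library, and Slc16a3 fell by 1.41 ± 0.22 (adjusted p = 6.76e-05), or 2.66-fold.

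Enzymes along the pathway moved the same way. Eno1, enolase, read 3264 to 3755 CPM at E10.5 and 1500 to 1909 CPM at E11.5 and fell by 1.06 ± 0.16 (adjusted p = 6.58e-05). Ldha, lactate dehydrogenase A, read 3347 to 3654 CPM and then 1768 to 1984 CPM, and fell by 0.93 ± 0.14 (adjusted p = 4.17e-05). Pkm, pyruvate kinase, fell by 0.85 ± 0.13, Pgk1, phosphoglycerate kinase, by 0.74 ± 0.13 and the glucose transporter Slc2a1 by 0.97 ± 0.20. With any single library left out, 12 members were called lower. With a test for a change beyond 1.5-fold only 1 was, so most of these falls are moderate in size. Eno1 and Ldha have close copies and pseudogenes in the genome, and how reads shared with those were counted is not given in the sources used here.

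Lists related to glycolysis had few calls. Of 16 hypoxia-response genes, 0 were called in either direction by edgeR (median -0.46), while 4 had an unadjusted p below 0.05 and DESeq2 called 2. Of 24 oxidative phosphorylation genes, 1 was called lower and 0 higher (median -0.27), and DESeq2 called 4 lower. All E11.5 libraries lay below the E10.5 ones for 11 of the 24, against 5.47% of all genes, and 3 estimates were above 0. Their summed level was 6657.4 to 7267.8 CPM at E10.5 and 5614.3 to 6057.5 CPM at E11.5, without overlap.

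The promoters of the glycolytic genes were read in the same windows, which held 17 of them. The core of the hypoxia response element, ACGTG on either strand, was present in 8 of the 17 (47.1%), in 4998 of the 27025 genes with a window, in 3108 of the 13371 tested genes with one (23.2%) and in 66 of 236 genes called lower (28.0%). Of the 3 shown, because each fell and carries the core, the match in capitals is the one nearest the start site, and further copies can stand in lower case.
Ldha: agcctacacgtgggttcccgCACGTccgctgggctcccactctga
Pgk1: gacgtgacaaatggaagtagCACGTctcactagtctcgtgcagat
Slc16a3: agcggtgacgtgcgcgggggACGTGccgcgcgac
Their positions are chr7:46845750-46845794, chrX:106186949-106186993 and chr11:120949033-120949066, all on the plus strand. The palindrome CACGTG, the E-box, contains this core on both strands, so a match does not separate the motifs. Nothing about either factor follows from these letters.

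In serine synthesis and amino acid supply, 8 of 18 genes were called lower and 0 higher, with a median of -0.85. Phgdh, which diverts a glycolytic intermediate into serine (chr3:98313170-98339990), read 877, 736, 659 and 637 CPM at E10.5 and 277, 275 and 336 CPM at E11.5. It fell by 1.30 ± 0.18 (adjusted p = 2.29e-05), and the single E18.5 library read 39.8 CPM. The mitochondrial one-carbon enzymes Shmt2 and Mthfd2 fell by 1.09 ± 0.16 and 1.30 ± 0.28, and the glutamine carrier Slc1a5 by 1.12 ± 0.17. Asns, asparagine synthetase, fell by 0.79 ± 0.20 (adjusted p = 0.0144, and 0.0623 without E11.5 replicate 3).

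For cholesterol synthesis, 8 of 20 genes were called lower and 0 higher, and all 20 estimates were below 0 (median -0.74). Sqle, squalene epoxidase, read 126, 76.5, 81.2 and 113 CPM at E10.5 and 49.2, 25.0 and 38.4 CPM at E11.5, and fell by 1.40 ± 0.26 (adjusted p = 0.000606). Cyp51, the lanosterol demethylase, fell by 1.12 ± 0.25 (adjusted p = 0.00551). Idi1, an earlier enzyme of the pathway, fell by 1.12 ± 0.28 (adjusted p = 0.0125, and 0.0796 without E11.5 replicate 2). The count was 5 without E11.5 replicate 1 or replicate 2 and 4 without replicate 3. The sterol response element, searched as TCACNCCAC, was in 1 of the 15 promoter windows available for this list.

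Ribosome biogenesis and MYC target genes were called lower for 6 of 20 and higher for 0 (median -0.46). Dkc1, the pseudouridine synthase of ribosomal RNA, read 146 to 200 CPM at E10.5 and 95.6 to 105 CPM at E11.5 and fell by 0.85 ± 0.13 (adjusted p = 7.39e-05). Ncl, nucleolin, fell by 0.62 ± 0.15 (adjusted p = 0.0136, and 0.107 without E11.5 replicate 1). The count for this list was 2 without E11.5 replicate 1 and 3 without E11.5 replicate 2, and it was 4 without E10.5 replicate 2. Of 22 cytosolic ribosomal proteins, 2 were called lower and all 22 estimates were below 0 (median -0.42). Their summed level was 7588.2 to 13746.9 CPM at E10.5 and 8215.0 to 9275.4 CPM at E11.5. E10.5 replicate 1 lay below every E11.5 library. The number called lower was 5 without E10.5 replicate 1, 3 without E10.5 replicate 2, 2 without E10.5 replicate 3 and 1 without any other library. It was 7 by DESeq2, 0 with only the E10.5 libraries numbered below those of E11.5 and 8 with only those above.

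Cell cycle genes were mostly not called. Of 20 mitosis genes 1 was called lower (median -0.26), and of 20 DNA replication genes 1 was called lower (median -0.31), with 18 of 20 estimates below 0 in each list. These calls were Aurka (-0.54, adjusted p = 0.0352) and Mcm5 (-0.47, adjusted p = 0.0268). Aurka was not called without E11.5 replicate 2 (adjusted p = 0.167), nor Mcm5 without E11.5 replicate 1 (0.109). Ccnd1, cyclin D1, went the other way: it read 67.4 to 78.4 CPM at E10.5 and 149 to 175 CPM at E11.5 and rose by 1.16 ± 0.15 (adjusted p = 8.87e-06). Its partner kinase Cdk6 fell by 0.54 ± 0.12 (adjusted p = 0.00772, and 0.0546 with the 7 libraries alone).

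Of 22 progenitor genes, Cd34 was called lower and Lyl1 higher (0.56 ± 0.12, adjusted p = 0.00546). Kit, the stem cell factor receptor, read at most 2.56 CPM in any library, and Myb 3.52 to 8.69 CPM. Of 10 oncofetal timing genes, which set the fetal as opposed to the adult state, 2 were called lower and 0 higher (median -0.71). Igf2bp1, an RNA-binding protein of that network, read 493 to 830 CPM and then 319 to 420 CPM and fell by 0.78 ± 0.17 (adjusted p = 0.00375, and 0.0569 with the 7 libraries alone). Hmga1, a chromatin protein with close gene copies, fell by 0.75 ± 0.21 (adjusted p = 0.0288), but in 6 of the 7 fits with 1 library left out it was not called, the highest adjusted p being 0.129 without E11.5 replicate 3.

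The remaining lists are given as counts, beside the 2.98% of all tested genes called higher and the 1.44% called lower. Several of them, such as complement and iron and haem handling, had a larger share called higher than that. Counting higher and then lower, these were 5 and 1 of 18 for complement, 5 and 0 of 23 for toll-like receptors and sensors and 4 and 0 of 16 for iron and haem handling. They were 4 and 1 of 27 for macrophage transcription factors, 3 and 1 of 24 for cytokines and chemokines, 3 and 1 of 22 for their receptors and 3 and 0 of 12 for purinergic genes. MHC class I presentation gave 3 and 0 of 16, with H2-T23 higher by 1.66 ± 0.26 (adjusted p = 0.000107), and the imprinted growth network 1 and 0 of 16. TGF-beta and BMP signalling gave 0 and 1 of 25, G1 cyclins and inhibitors 1 and 1 of 17 and immediate early and heat shock genes 0 and 1 of 20, the last being Hsp90aa1 (-0.82 ± 0.13). The MHC class II list had 0 calls among 10 genes by edgeR (1 at an unadjusted p below 0.05 and 0 by DESeq2), and its summed level was at most 17.3 CPM in any of the 7 libraries. Vsig4, a complement receptor of resident macrophages, had 0 counts at E10.5 and 92 over the E11.5 libraries, at least 44-fold higher on the same 3-count allowance. The count for iron and haem handling was 0 without E10.5 replicate 2, E11.5 replicate 2 or E11.5 replicate 3 and 1 or 2 without any other library. The 5 higher calls among toll-like receptors and sensors were 2 without any E11.5 library, and those among transcription factors were 2 without E10.5 replicates 2 or 3 or E11.5 replicates 2 or 3. The cytokine count was 1 without E10.5 replicate 2. The imprinted growth count was 4 without E10.5 replicate 3 and 0 without E10.5 replicates 1, 2 or 4 or E11.5 replicate 2.

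**Figure D3:**
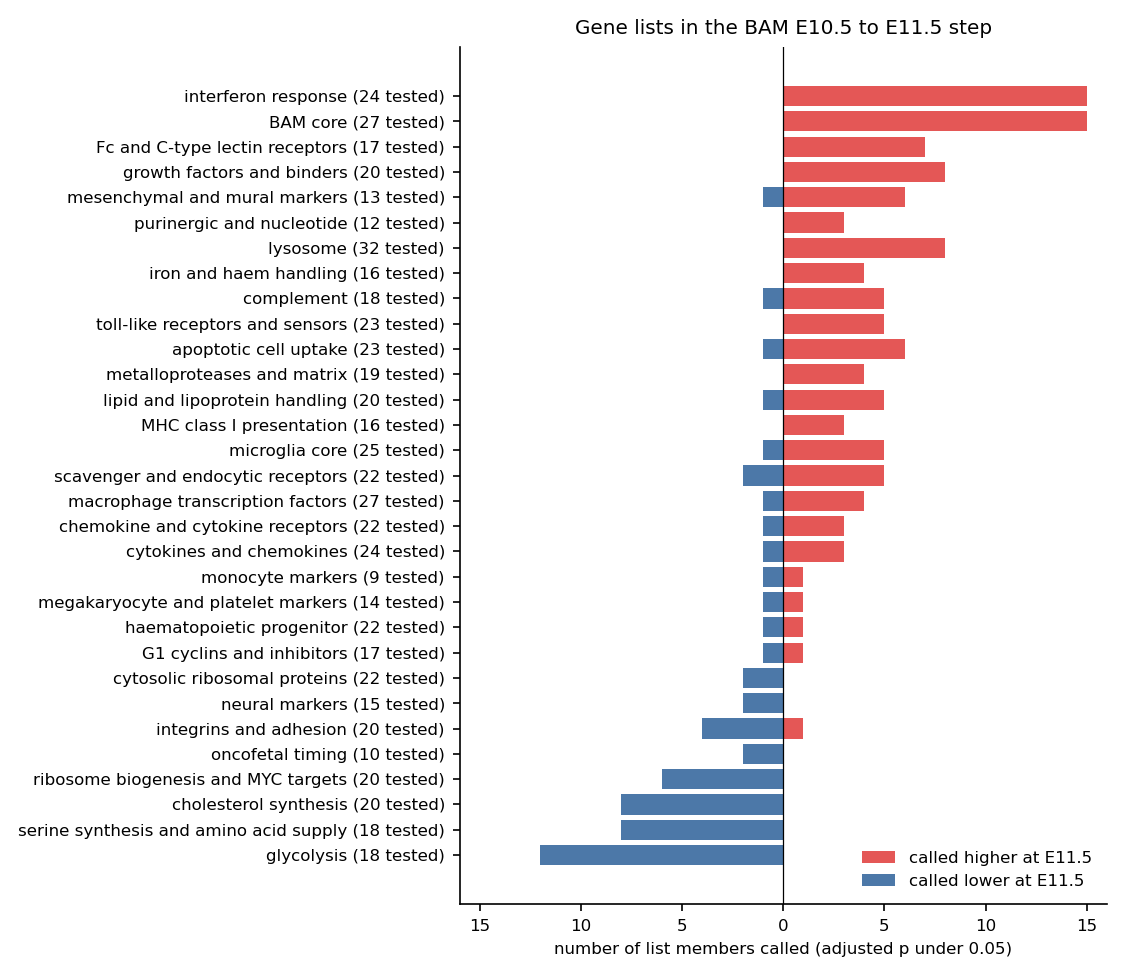
Number of members called higher (red, to the right) and lower (blue, to the left) at E11.5 for each gene list with at least 2 calls, with the number tested in brackets. Interferon response and BAM core have 15 members called higher each, and glycolysis has 12 called lower.

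Markers of other cells had few calls, but some of their summed levels differed between the days. Of 9 monocyte markers 1 was called higher and 1 lower, and their summed level was 41.3 to 75.0 CPM at E10.5 and 19.5 to 29.9 CPM at E11.5. The lower one was Plac8, a gene of monocytes and progenitors, which read 7.52, 9.96, 6.18 and 12.2 CPM and then 0.797, 0.573 and 0.496 CPM (-3.84 ± 0.77, adjusted p = 0.00167). Of 14 endothelial, 12 granulocyte and mast cell, 8 epithelial and choroid and 6 lymphoid markers, 0 were called by edgeR. At an unadjusted p below 0.05 there were 1, 1, 0 and 1, and DESeq2 called 0, 1, 0 and 0. The endothelial sum was 141.1 to 169.4 CPM at E10.5 and 111.0 to 124.4 CPM at E11.5, without overlap. Of 14 erythroid markers 1 was called higher, Epor, and 0 without any single library. Of 14 megakaryocyte and platelet markers 1 was called each way, and their sum was 103.9 to 218.0 CPM and then 357.1 to 391.8 CPM, of which most is Pf4. Of 15 neural markers 2 were called lower, Gap43 (-2.55 ± 0.44) and Vim (-0.95 ± 0.19), and their summed level was 513.3 to 563.1 CPM and then 305.9 to 345.4 CPM, of which most is Vim, a filament protein that macrophages also express. Of the 15 estimates 9 were above 0, and the number of neural markers called higher, 0 as reported, was 4 without E10.5 replicate 3 and 3 with only the lower-numbered E10.5 libraries. The part of these markers in the other calls was not tested.

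Whether the step is the same in microglia was asked with the difference between the steps of the populations. In microglia 1822 genes were called between E10.5 and E11.5 (8.26%), 1156 higher (5.24%) and 666 lower (3.02%). Of the 658 genes called higher in BAM, 298 were also called higher in microglia, which is 45.3% of the BAM calls and 25.8% of the 1156 microglia calls. For genes called lower the shared number was 147, or 46.2% of the BAM calls and 22.1% of those in microglia. Opposite calls were 5 and 5. The difference itself was called for 162 genes (0.734%), 50 with the larger value in BAM (0.227%) and 112 with the smaller (0.508%).

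Interferon response and glycolysis moved in both populations. In microglia 17 of the 24 interferon-response genes were called higher and 11 of the 18 glycolysis identifiers lower, and the medians of the difference were 0.42 and -0.04. The difference was called by edgeR for 0 interferon-response genes (4 at an unadjusted p below 0.05, 1 by DESeq2) and for 1 glycolysis gene. Oas2 rose by 2.52 ± 0.31 in microglia against 3.15 in BAM (difference 0.64 ± 0.44, adjusted p = 0.714). For the border macrophage list the difference was called by edgeR for 0 of 27 genes, with a median of -0.03. At an unadjusted p below 0.05 there were 4, and DESeq2 called 1. A missing call does not show that the steps are equal.

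Microglia genes separated the populations. Of the 25 genes of the microglia list, 22 were called higher in the microglia step, 5 were called higher and 1 lower in the BAM step (median 0.34), and for 9 the BAM step was called smaller. Without BAM E11.5 replicate 3 the 5 became 3. P2ry12, a purine receptor of microglial processes, read 105, 126, 105 and 158 CPM in BAM at E10.5 and 157, 154 and 156 CPM at E11.5 (0.34 ± 0.18, adjusted p = 0.328). In microglia it read 153 to 234 CPM and then 588 to 726 CPM. The steps differed by -1.52 ± 0.26 (adjusted p = 0.00174). Tmem119 read 33.2 to 77.5 CPM and then 31.8 to 46.9 CPM in BAM against 192 to 307 CPM and then 529 to 669 CPM in microglia, a difference of -1.45 ± 0.33 (adjusted p = 0.0237, and 0.0927 without BAM E11.5 replicate 2).

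Among the others, Fcrls rose in both populations, by 0.66 ± 0.11 in BAM and 1.77 ± 0.11 in microglia (difference -1.11 ± 0.16, adjusted p = 0.000241). Crybb1 also rose in both, by 1.19 and 2.98, and its difference of -1.79 ± 0.43 (adjusted p = 0.0359) was not called without microglia E11.5 replicate 2 (0.124) or in 8 of the other omissions. The fructose transporter Slc2a5 fell in BAM by 1.08 ± 0.27 and rose in microglia by 1.02 ± 0.25 (difference -2.10 ± 0.37, adjusted p = 0.00251). Sall1, a transcription factor of microglia, read 1.92 CPM in 1 BAM library at E10.5 and under 1 CPM in the other 6. In microglia it read 0.33 to 7.33 CPM and then 40.5 to 60.6 CPM. The difference of -4.08 ± 1.26 was not called (adjusted p = 0.132). Cx3cr1, the fractalkine receptor, read 1347 to 1835 CPM and then 2018 to 2047 CPM in BAM (0.35 ± 0.13, adjusted p = 0.127). In microglia it read 2082 to 2537 CPM and then 3633 to 4195 CPM. Its difference of -0.46 ± 0.19 was not called either (adjusted p = 0.3).

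The lysosome list separated them in size only. In microglia 21 of 32 members were called higher, and for 5 the BAM step was called smaller. Ctsd, cathepsin D, read 668 to 1114 CPM and then 3382 to 4395 CPM in microglia, against 962 to 1024 CPM and then 1589 to 1685 CPM in BAM. The steps differed by -1.46 ± 0.18 (adjusted p = 2.01e-05), and those of Lgmn, legumain, by -0.70 ± 0.15 (adjusted p = 0.0122).

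**Figure D4:**
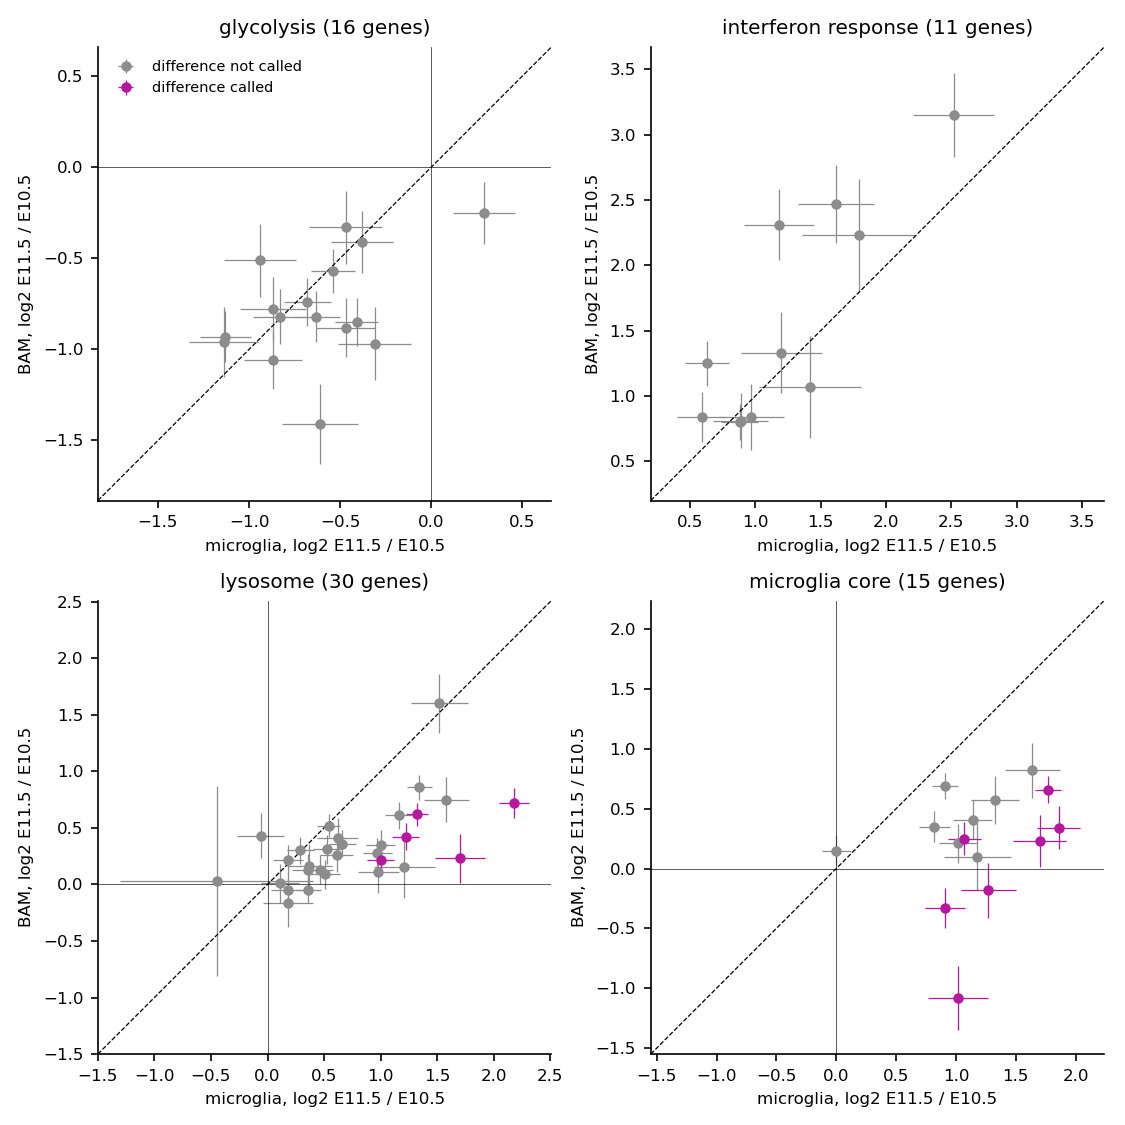
Change from E10.5 to E11.5 in BAM (vertical, log2) against that in microglia (horizontal, log2) for members of 4 lists with a mean of at least 16 CPM in BAM, with standard errors from the fit; the dashed line marks equal steps. Glycolysis (16 genes) and interferon response (11) have no called difference, while 5 of 30 lysosome genes and 7 of 15 microglia genes, all below the line, do.

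The largest differences by rule lay mostly in genes that rose in microglia. Serpine2, a protease inhibitor, read 8.81 to 20.9 CPM and then 5.80 to 6.08 CPM in BAM and 51.8 to 141 CPM and then 277 to 368 CPM in microglia. The steps differed by -3.23 ± 0.54 (adjusted p = 0.00154). Kcnk13, the potassium channel THIK-1, and the lipid transporter Abcg1 were called higher in microglia (2.16 and 3.39) and not called in BAM (-0.54 and 0.73), with differences of -2.70 and -2.65. The adhesion molecule Cadm1 fell in BAM by 0.67 and rose in microglia by 1.70 (difference -2.37 ± 0.24, adjusted p = 5.05e-07). Its fall in BAM had an adjusted p of 0.0182, and of 0.0887 without E11.5 replicate 3. Blnk, an adaptor of immune receptor signalling, fell in BAM by 1.68 with overlapping groups (adjusted p = 0.00646, and 0.0529 without E11.5 replicate 2), with a difference of -2.48 ± 0.50.

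For a smaller set the BAM step was called larger. Cd200r1, the inhibitory receptor for CD200, read 28.8 to 34.8 CPM and then 93.1 to 137 CPM in BAM against 21.0 to 33.8 CPM and then 30.7 to 38.4 CPM in microglia (difference 1.60 ± 0.31, adjusted p = 0.00759). Samsn1, an adaptor that dampens immune receptor signals (chr16:75858793-76022281), rose by 1.45 ± 0.17 in BAM and differed by 0.04 ± 0.17 in microglia, a difference of 1.41 ± 0.24 (adjusted p = 0.00174). Fcgr2b rose in both, by 3.01 and 1.24, and the steps differed by 1.77 ± 0.30 (adjusted p = 0.00174). The actin-binding calponin Cnn3 fell in microglia by 1.78 ± 0.24 and was not called in BAM (0.15 ± 0.23), with a difference of 1.94 ± 0.33. Rnf144b, a ubiquitin ligase, was not called in BAM (0.67, adjusted p = 0.0966) and fell in microglia by 0.94 (adjusted p = 0.0105). Its steps differed by 1.61 ± 0.34 (adjusted p = 0.0123, and 0.0575 without BAM E11.5 replicate 3).

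Among the falling actin and adhesion genes, the steps differed for some and were not called different for others. Of the 20 integrins and adhesion genes, 3 had a called difference, each with the smaller value in BAM, and Icam1 was the one of them called in the BAM step. Parvg read 223 to 301 CPM and then 302 to 352 CPM in microglia, and the steps differed by -2.03 ± 0.34 (adjusted p = 0.00174). Icam1 read 88.5 to 124 CPM and then 104 to 132 CPM there, with a difference of -1.26 ± 0.24 (adjusted p = 0.00682). The differences of Itgb2 (-0.55, adjusted p = 0.272) and Lsp1 (-0.51, adjusted p = 0.494) were not called. For Cd34 the steps differed by -1.85 (adjusted p = 0.0793), which was not called. With the 14 libraries of these days alone in the fit, 32 differences were called in place of 162, and Parvg was still called (adjusted p = 0.00963) whereas Icam1 and Fcgr2b were not (0.0525 and 0.119). Nor were Lgmn (0.117), Blnk (0.144), Tmem119 (0.2), Abcg1 (0.0524), Rnf144b (0.0524) and Crybb1 (0.345).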

How the data were processed

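Per the labels' protocols, RNA of sorted cells was purified by PicoPure, amplified from 2 ng by a modified form of SMART-seq2 with ERCC spike-ins (not used here), made into Nextera XT libraries and sequenced from both ends. Alignment used STAR and the GRCm38 build, and genes were counted by featureCounts, per the submitters' processing notes. Versions, strand setting and the treatment of shared reads are not given in the sources used here. The authors deposited whole-number counts for 53379 genes in 39 libraries, and those counts were used as they stand. Counts of 2 outnumbered counts of 1 in the 7 BAM libraries (6894 against 2877), so lower bounds from counts, which cover counting error only, may be too high.

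Genes were filtered with filterByExpr, which kept 22061 genes holding 99.973% of counts. In edgeR 4.0.16 (R 4.3.3), a quasi-likelihood model with TMM factors was fitted to all 39 libraries in 12 groups (27 residual degrees of freedom; the common BCV was 55.08%). The contrasts were the BAM step, the microglia step and their difference, with Benjamini-Hochberg adjustment over all genes tested. CPM used TMM-scaled library sizes, and errors of log2 values are the estimate divided by the square root of F. On simulated counts for the BAM step over 21147 genes, 35% of 2-fold and 96% of 4-fold changes were recovered, with 5 false calls. The simulated spread was set by a formula and not taken from these data, and changes were planted only in genes with a mean above 5 CPM. These rates therefore need not hold for the real libraries or for genes at low counts. No replicate pair agreed within sampling noise.

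Replicate numbers follow accession order and name libraries only. The step and the 44 gene lists were chosen with earlier results of these data known. Named genes are the 12 largest called changes each way with a mean of at least 16 CPM, leaving out predicted and clone names, the 4 members of each list with the smallest p, a panel of known markers and the 5 largest step differences each way. Further list members (Stat2, Usp18, Folr2, Gas6, Slc2a1, Pgk1, Asns, Idi1, Slc2a5, Pdgfra, Pdgfrb and Myb) and the macrophage genes Adgre1, Cd68, Aif1, C1qa, Fcgr3, Ptprc and Spi1 were named after their values were seen. Alternatives were RLE factors, no filter, DESeq2 1.42.0, other sets of libraries, a 1.5-fold threshold, halved counts, single omissions and, added after seeing the data, a block on adjacent library numbers. The interferon motif was first searched in a form longer by 1 base, which fewer genes held, and is given in the shorter form. No count column was left unused.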

Additional observations from a re-analysis of the deposited data

Results flagged for a closer look

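In the 4 BAM libraries of E10.5, a value far from the other 3 by Dixon's test was found for 5 genes named above: Ptprk in replicate 3 (13.7 CPM, high), P2rx1 in replicate 3 (19.4 CPM, low), Spp1 in replicate 4 (17.1 CPM, high), Hsp90aa1 in replicate 1 (992 CPM, high) and Sall1 in replicate 1 (1.92 CPM, high). These 5 came from 113 groups of libraries tested, where chance gives about 1 in 20 groups, so they are no more than chance gives. Over all 197 genes chosen by the naming rule there were 20 such values (10.2%). All E11.5 libraries lay above the outlying value for Ptprk and Spp1 and below it for P2rx1. For Hsp90aa1 they lay on the other side, below every E10.5 library.

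The step differed between BAM and microglia, by the test of the difference, for 19 named genes with more than 3 counts in each of the 4 groups. It was smaller in BAM for Serpine2 (-3.23), Kcnk13 (-2.70), Abcg1 (-2.65), Blnk (-2.48), Cadm1 (-2.37), Slc2a5 (-2.10), Parvg (-2.03) and Crybb1 (-1.79). It was also smaller for P2ry12 (-1.52), Ctsd (-1.46), Tmem119 (-1.45), Icam1 (-1.26), Fcrls (-1.11) and Lgmn (-0.70). It was larger in BAM for Cnn3 (1.94), Fcgr2b (1.77), Rnf144b (1.61), Cd200r1 (1.60) and Samsn1 (1.41). All values are differences of log2 changes. The difference was also called for Vsig4 and Mmp14 (adjusted p = 0.00154 and 0.0113), larger in BAM, but their BAM libraries of E10.5 held 0 counts and no size is given. With the 14 libraries of these days alone in the fit neither was called (0.163 and 0.0699).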

How the results depend on the processing

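None of the 125 genes chosen by the naming rule and called in the BAM step reversed under any alternative. Of the 72 not called, 8 changed sign under some, and no value of changed sign was called. Over single omissions Folr1 (0.91) ranged from -0.14 to 5.43, Hdc (1.67) from -0.03 to 2.95, Il7r (2.19) from -2.95 to 5.14, Krt18 (-1.73) from -3.13 to 0.03, Otx2 (-0.38) from -1.13 to 0.2, Sall1 (0.13) from -0.63 to 6.6 and Tmem119 (-0.18) from -0.31 to 0.19. With only the lower-numbered E10.5 libraries Krt18 was 0.55, Krt8 (-2.34) 4.72, Otx2 0.31 and Sall1 -0.8, and with only the higher-numbered ones Folr1 was -0.08 and Tmem119 0.29. Of the 125, all kept the call with RLE factors, DESeq2 and halved counts, 119 without the expression filter, 112 with the BAM libraries alone, 92 with the 16 libraries numbered R10, 79 with the 7 libraries alone and 53 under a 1.5-fold threshold. The 976 calls became 1756 with DESeq2 (1045 higher, 711 lower), 358 with the 7 libraries alone (251 and 107), 398 with the R10 libraries (238 and 160) and 221 under the 1.5-fold threshold (195 and 26). Single omissions gave 629 to 1017 calls, 450 to 664 higher and 163 to 353 lower. With only the E10.5 libraries numbered below those of E11.5 there were 977, and with only those above, 701. The microglia step had 1025 calls with its own 7 libraries (597 and 428), 1061 with R10 (682 and 379), 351 beyond 1.5-fold (303 and 48) and 1181 lower with DESeq2. Its single omissions gave 1378 to 1748 calls, 892 to 1121 higher and 453 to 627 lower. The 162 differences between the steps became 334 without the filter (125 larger in BAM, 209 smaller), 482 with DESeq2 (183 and 299), 32 with the 14 libraries alone (9 and 23), 33 with R10 (8 and 25) and 47 beyond 1.5-fold (24 and 23). Single omissions gave 102 to 227, 35 to 71 larger and 67 to 167 smaller. The cause of these shifts was not tested. The labels carry no replicate numbers. Each BAM library of these days has a microglia library with the adjacent library number, and a fit with that pair as a replicate block was added after seeing the data. Deviations from the group means correlated between adjacent libraries at -0.09 to 0.51, and in 4 of 7 pairs the adjacent library was the best match, so the pairing is only a hint. With the block, 213 differences were called (61 larger in BAM, 152 smaller), and 146 of the 162 were among them. With the 16 libraries numbered R10, Folr2 (adjusted p = 0.0767), Gas6 (0.0696), Vsig4 (0.0873), Lum (0.0553) and Lyl1 (0.0654) were among the calls lost. Depth limits genes at low counts, where fitted changes depend on the prior count.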
